A study of Mus musculus with 39 samples.

Results

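The comparison was between PB2 mouse breast tumors that carried p95HER2 and PB2 mouse breast tumors that carried full-length HER2 (FL-HER2), both taken 22 days after implantation. It used 19 of the series' 39 libraries, 10 of p95HER2 and 9 of FL-HER2, chosen by the construct and the day in each library's label, and it covered every gene of the deposited table. The remaining libraries, from tumors taken at day 10, were not used here. Each library was made from poly(A)-selected RNA of a tumor and carries its own tumor number. The labels give no host strain, age or sex, no treatment, and no statement that the tumors came from separate animals or that each construct was more than 1 clone. Both groups share the PB2 background and the graft, and they differ in the form of HER2 as far as the labels say. The p-values therefore measure the spread between these libraries, which may be partly technical.

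HER2 is a receptor tyrosine kinase of the epidermal growth factor receptor family. It has no ligand of its own, forms dimers with the other family members and signals mainly through the RAS, MAPK and AP-1 route and through PI3K and AKT. p95HER2 is a truncated form found in part of HER2-positive breast cancers that lacks most of the extracellular domain, and with it the site that trastuzumab binds, but keeps the kinase.

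Whole reads recovered from the deposited values came to 21772259 to 44427621 per library in FL-HER2 (n = 9) and 31467322 to 36637022 in p95HER2 (n = 10), so a level of 1 CPM (reads scaled to the library's total) stood for at least 21.8 reads. The epithelial marker Epcam was at 468 to 770 CPM over the 19 libraries, and the B cell marker Ms4a1 did not pass 0.451 CPM in any library. RNA of tissue around the graft varied. The skeletal muscle list took 0.0252% to 0.943% of reads in FL-HER2 and 0.00169% to 0.605% in p95HER2. The summed level of the epidermis and hair list was 19.6 to 31.6 CPM in 15 libraries and 60.3 to 168 CPM in the others, which were FL-HER2 replicate 7 and p95HER2 replicates 3, 4 and 10 (called skin-marked).

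Erbb2, the mouse gene for HER2, is given first, though it cannot check which form a library carries. Its level was 87.9 to 165 CPM in FL-HER2 (median 105, n = 9) and 156 to 227 CPM in p95HER2 (median 175, n = 10). The FL-HER2 and p95HER2 ranges met at their edges, with 7 of 10 p95HER2 libraries above the highest FL-HER2 library. Erbb2 rose by 0.73 ± 0.11 (log2 change ± SE, adjusted p = 0.000357), a ratio of mean CPM of 1.64, and it lies at chr11:98412470-98437716 on the plus strand (GRCm38). Whether the constructs hold mouse, rat or human sequence is not given in the sources used here, so Erbb2 counts a construct only as far as its reads align to the mouse gene, and a gene count does not tell the 2 forms apart.

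Of 13120 genes tested, 589 (4.49%) were called at an adjusted p under 0.05 in limma, 363 higher (2.77%) and 226 lower (1.72%) in p95HER2. All log2 changes are p95HER2 minus FL-HER2 on the scale of log2(normalized count + 1), which understates the change of genes with few reads. The calls differed in kind between the directions. Higher calls had a median log2 change of 0.38, and 78 of them had an adjusted p under 0.01. Lower calls had a median of -0.65, and 6 had an adjusted p under 0.01. On the deposited log2 scale, in 29 genes (0.221%) every p95HER2 library lay above every FL-HER2 library, and in 2 genes (0.0152%) every p95HER2 library lay below. A change of at least 2-fold was reached by 42 of the higher calls (0.32%) and 58 of the lower calls (0.442%). The median over all genes tested was -0.01. The shares of 2.77% called higher and 1.72% called lower are the background for every list count below. For counts at an unadjusted p under 0.05 in limma the background is 2594 of the 13120 genes tested.

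**Figure D1:**
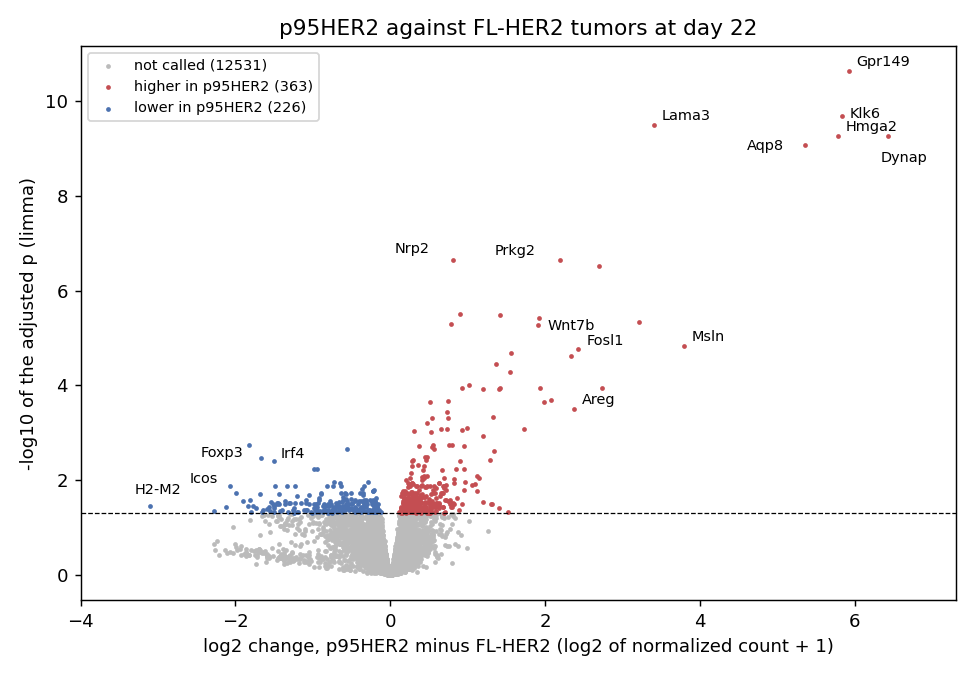
Log2 change (x axis, p95HER2 minus FL-HER2) against -log10 of the adjusted p from limma (y axis) for the 13120 genes tested, with 363 higher calls in red, 226 lower calls in blue and the threshold as a dashed line. The rises reach 6.43 on the log2 scale, where the genes farthest right passed the filter through p95HER2 libraries only, and much smaller adjusted p than the falls, which lie close to the dashed line.

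The largest rises were in genes that FL-HER2 tumors hardly expressed. Dynap, which encodes a dynactin-associated membrane protein, was at 0 reads in 6 of 9 FL-HER2 libraries and at most 0.276 CPM in the others, against 2.07 to 7.44 CPM in p95HER2 (median 5.53). Hmga2, an oncofetal chromatin protein that is normally off in adult tissue, was at 0.0585 to 0.689 CPM in FL-HER2 (median 0.187) and 6.41 to 18.9 CPM in p95HER2 (median 16). Neither gene's p95HER2 libraries reached down to the FL-HER2 range. The log2 changes were 6.43 ± 0.39 for Dynap and 5.79 ± 0.35 for Hmga2. No FL-HER2 library reached 1 CPM in either gene, so both passed the filter on low values only through p95HER2 libraries. Their difference is given as a description, with no test. Of the 363 higher calls 9 had no FL-HER2 library at 1 CPM. No lower call lacked a p95HER2 library at 1 CPM, which would have needed all 9 FL-HER2 libraries at that level. Other higher calls, such as Fosl1 and Csf3, had an FL-HER2 median under 1 CPM and every p95HER2 library above it. FL-HER2 libraries alone would not have carried them through the filter, and their p-values below carry that limit. Over the summed reads, Hmga2 was 54.6 times higher in p95HER2 (95% exact interval 43.3 to 69.9, for counting error only) and Dynap 149 times (80.7 to 311). Hmga2 lies at chr10:120361275-120476469 on the minus strand (GRCm38). Its regulator genes Lin28a and Lin28b, which block the let-7 miRNAs, were at most 0.461 CPM in any of the 19 libraries and were not tested. Igf2bp2, an RNA-binding protein of the same oncofetal list, rose by 0.74 ± 0.10 (adjusted p = 0.00021).

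Several genes below the 5 CPM set for naming the largest changes showed the same split, and they are given here because of their values. Gpr149, an orphan receptor, and Klk6, a kallikrein serine protease, had 1 read each over the 9 FL-HER2 libraries together, and 1.04 to 4.38 CPM and 0.902 to 5.34 CPM in p95HER2. Aqp8, a water channel, had 3 reads in 1 FL-HER2 library and 0.628 to 3.71 CPM in p95HER2. These 3 genes had reads in all 10 p95HER2 libraries, with summed-read ratios of 714 (95% exact interval 128 to 28224) for Gpr149, 715 (128 to 28256) for Klk6 and 174 (59.4 to 848) for Aqp8. Msln, the surface protein mesothelin, was at 0 to 0.499 CPM in FL-HER2 and 0.948 to 4.15 CPM in p95HER2, with no overlap (3.80 ± 0.43). Gpr149, Klk6, Aqp8 and Msln also passed the filter only through p95HER2 libraries and are given with no test. Among genes left out by the filter on low values, the cytokine gene Il24 had 0 reads in all 9 FL-HER2 libraries and 0.902 to 3.55 CPM in all 10 p95HER2 libraries. Set against a floor of 3 reads over the FL-HER2 group (0.0105 CPM), Il24 was at least 208-fold higher in p95HER2, with no test. It was 1 of 12 genes without a test, of 7400, in which every p95HER2 library was above every FL-HER2 library.

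A pair of HER family ligands rose in p95HER2. Areg (amphiregulin, a ligand of the epidermal growth factor receptor) was at 0.625 to 8.63 CPM in FL-HER2 (median 2.14) and 6.89 to 13.5 CPM in p95HER2 (median 10.9). Hbegf, a second ligand of that receptor, was at 4.04 to 14.8 CPM (median 7.23) and 12.9 to 25 CPM (median 20.2). In both genes all 10 p95HER2 libraries were above the FL-HER2 median and 8 of 10 were above the highest FL-HER2 library. Areg rose by 2.37 ± 0.34 (adjusted p = 0.000309) and Hbegf by 1.42 ± 0.19 (adjusted p = 0.000112). Of the 11 tested members of the family's receptors and ligands, 4 were called higher and none lower, the others being Erbb2 and Erbb3 (0.22 ± 0.06, adjusted p = 0.0469), the kinase-impaired partner of HER2. Their median log2 change was 0.15. The receptor gene Egfr had a log2 change of -0.01 ± 0.06 (adjusted p = 0.951).

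Targets of the MAPK route were mixed. Fosl1, the AP-1 subunit FRA1, was at 0.248 to 1.88 CPM in FL-HER2 (median 0.685) and 2.14 to 5.43 CPM in p95HER2 (median 3.44), without overlap. It rose by 2.43 ± 0.28 (adjusted p = 1.73e-05), though FL-HER2 libraries alone would not have carried it through the filter on low values. Of 20 tested genes of the MAPK feedback and ERK target list, 5 were called higher and none lower, with a median of 0.17. They were Fosl1, the phosphatases Dusp4 (0.77 ± 0.20) and Dusp5 (0.63 ± 0.13), the receptor Epha2 (0.41 ± 0.09) and the early gene Ier3 (0.58 ± 0.16). The feedback genes Etv4, Etv5 and Spry2, taken from the same list, had changes of -0.06, -0.01 and 0.02 and were not called (adjusted p = 0.591, 0.927 and 0.923). Among 9 tested AP-1 subunits Junb was the only other call (0.32 ± 0.09, adjusted p = 0.0437), while Jun (0.07, adjusted p = 0.735) and Fos (0.49, adjusted p = 0.184) did not pass.

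**Figure D2:**
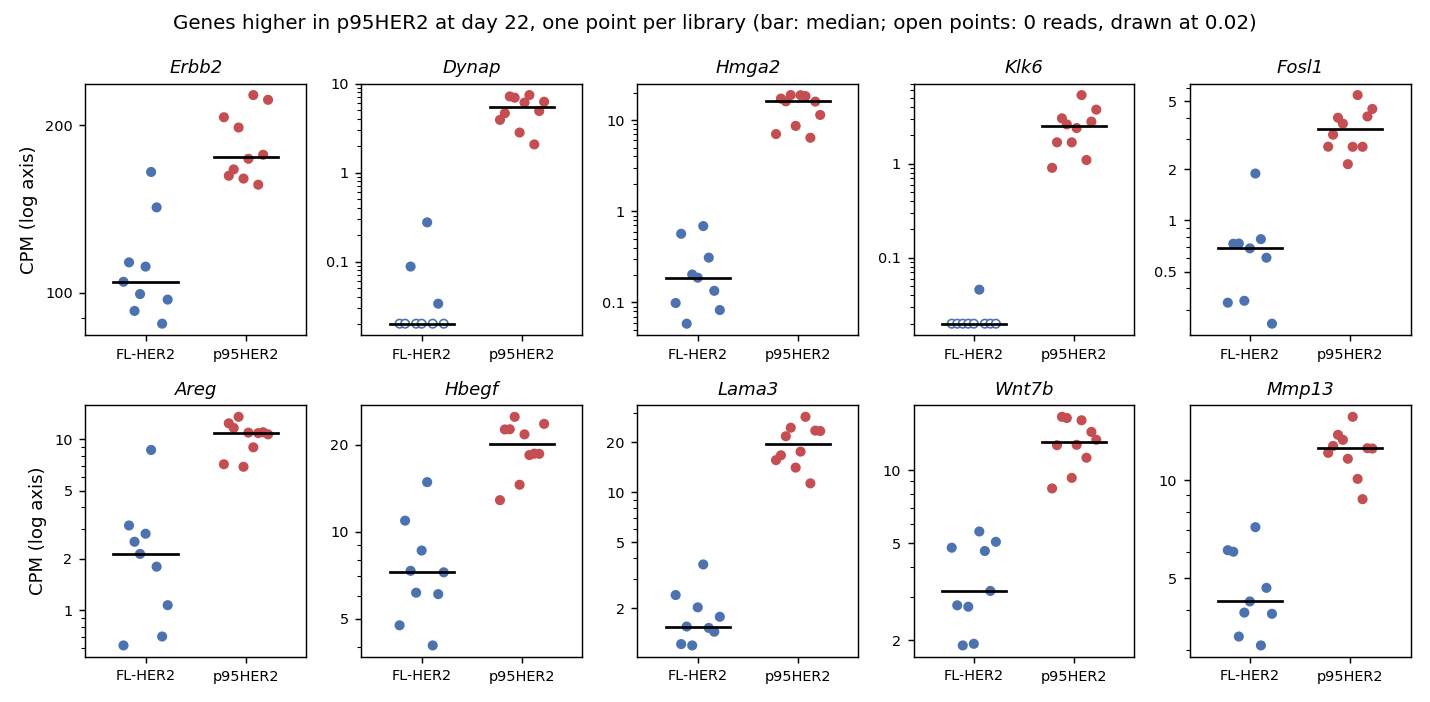
CPM on log axes, 1 point for each of 9 FL-HER2 (blue) and 10 p95HER2 (red) libraries, with the median as a bar and open points for libraries at 0 reads drawn at 0.02. Dynap, Hmga2, Klk6, Fosl1, Lama3, Wnt7b and Mmp13 show no overlap between the groups, while Erbb2, Areg and Hbegf overlap at the edges.

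Lama3 and Lamb3 encode chains of laminin-332, on which basal epithelial cells are fixed through hemidesmosomes. Lama3 was at 1.19 to 3.67 CPM in FL-HER2 (median 1.55) and 11.3 to 28.5 CPM in p95HER2 (median 19.7). Lamb3 was at 126 to 212 CPM (median 160) and 177 to 336 CPM (median 255). The groups did not overlap for Lama3, and 7 of 10 p95HER2 libraries exceeded the highest FL-HER2 library for Lamb3. Lama3 rose by 3.41 ± 0.20 (adjusted p = 3.14e-10) and Lamb3 by 0.57 ± 0.12 (adjusted p = 0.0129). Cd151, a tetraspanin of hemidesmosomes, rose by 0.19 ± 0.04 (adjusted p = 0.0165). In the laminin-332 and hemidesmosome list 4 of 9 members were called higher, none was called lower, and all 9 changes were positive (median 0.23). The integrin chains Itga6 (0.14 ± 0.10, adjusted p = 0.447) and Itgb4 (0.23 ± 0.08, adjusted p = 0.085) of the hemidesmosome did not pass. Itga3, the laminin-binding integrin chain outside that list, was at 41 to 68.4 CPM and 71.9 to 115 CPM without overlap and rose by 0.90 ± 0.09 (adjusted p = 3.15e-06); it is named because of its values.

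Some keratin genes and the desmosome gene Pkp1 gave further rises. Krt7, a simple epithelial keratin, was at 11.5 to 50.1 CPM in FL-HER2 (median 22.9) and 37.8 to 83.8 CPM in p95HER2 (median 59.4), and rose by 1.32 ± 0.20 (adjusted p = 0.000461). Krt17, a keratin of basal and wounded epithelium, was at 1.34 to 3.12 CPM and 1.74 to 7.6 CPM and rose by 1.14 ± 0.23 (adjusted p = 0.00889). Pkp1, a desmosome plaque protein, rose by 1.40 ± 0.19 (adjusted p = 0.000119). For each of these 3 genes 8 of 10 p95HER2 libraries were above the highest FL-HER2 library. In the desmosome list Pkp1 was the only call of 7 tested (median 0.12). The basal list held 3 higher calls of 11 (median 0.36) and the luminal list 2 of 14 (median 0.12), with none lower in either. The standard basal and luminal keratins Krt5 (0.14 ± 0.42, adjusted p = 0.896), Krt14 (0.75 ± 0.23, adjusted p = 0.0606) and Krt8 (0.11 ± 0.05, adjusted p = 0.273) were not called. Krt5, Krt14 and Krt17 are also expressed in epidermis, and the skin-marked libraries were 1 of FL-HER2 and 3 of p95HER2. Krt17 lost its call in 1 of 14 alternative fits, with an adjusted p of at most 0.0559, and Krt7 and Pkp1 in 0 of 15. The fit without these 4 libraries is among them, and in it 36 of the 68 named rises were still called. The part of skin RNA in the Krt5 and Krt14 values was not tested.

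Matrix genes rose selectively. Col18a1, the basement membrane collagen that releases endostatin, was at 57.2 to 156 CPM in FL-HER2 (median 79) and 136 to 218 CPM in p95HER2 (median 181), and rose by 1.01 ± 0.13 (adjusted p = 9.96e-05). Col7a1, the anchoring fibril collagen that links laminin-332 to the dermis, was at 4.42 to 14.9 CPM (median 7.52) and 10.1 to 30 CPM (median 21.2), and rose by 1.34 ± 0.23 (adjusted p = 0.00237). For Col18a1, 9 of 10 p95HER2 libraries were above every FL-HER2 library, and for Col7a1 8 of 10 were. Osteopontin (Spp1, 0.95 ± 0.18, adjusted p = 0.00585), fibronectin (Fn1, 0.66 ± 0.15, adjusted p = 0.019) and thrombospondin 1 (Thbs1, 0.55 ± 0.12, adjusted p = 0.0162) rose as well. These were the 5 higher calls among 29 tested collagen and matrix genes, whose median was 0.00. The fibroblast list had no call in limma in either direction among 24 members (median -0.22), and none by voom. At an unadjusted p under 0.05 in limma were 9 of the 24, against 2594 of all 13120 genes tested.

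Proteases that cut the matrix rose in part. Mmp13, a collagenase, was at 3.1 to 7.17 CPM in FL-HER2 (median 4.24) and 8.73 to 15.6 CPM in p95HER2 (median 12.5), and rose by 1.41 ± 0.14 (adjusted p = 3.2e-06). Mmp12, an elastase also made by macrophages, was at 14.2 to 27 CPM (median 20.2) and 17.2 to 44.3 CPM (median 31.3), and rose by 0.64 ± 0.15 (adjusted p = 0.0216). The groups did not overlap for Mmp13, and 8 of 10 p95HER2 libraries exceeded the FL-HER2 range for Mmp12. Of 11 tested matrix metalloproteinases and inhibitors 4 were called higher, the others being Mmp11 (0.44 ± 0.12) and the inhibitor Timp2 (0.24 ± 0.06), with a list median of 0.38. Mmp10, a stromelysin left out by the filter, was at 0 to 0.597 CPM in FL-HER2 and 0.901 to 3.24 CPM in p95HER2. The gelatinases Mmp2 (0.03 ± 0.09, adjusted p = 0.897) and Mmp9 (-0.25 ± 0.17, adjusted p = 0.43), from the same list, were not called. In the plasminogen route, the urokinase receptor Plaur (5.17 to 13.6 CPM against 11.1 to 18.1 CPM) rose by 0.79 ± 0.13 (adjusted p = 0.00183). The tissue activator Plat rose by 0.44 ± 0.12 (adjusted p = 0.0428), and the plasminogen list had 3 higher calls of 7 (median 0.30).

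AP-1 is the dimer that Fosl1 and Junb enter. The letters searched for its site were TGANTCA, where N is any base. The 150 bases before the RefSeq start of Mmp13, and before the downstream one of the 2 starts listed for Mmp12, hold these letters, first base at -35 and -44 from the start. They are shown, as RefSeq has them on GRCm38.p6, because both genes rose and hold these letters, so they were picked for the match. Whether AP-1 acts on either gene was not tested. Mmp13 is at chr9:7272364-7272513 and Mmp12 at chr9:7347224-7347373, both on the plus strand. Capitals mark TGANTCA and, in Mmp13, at its 5′ end, GAAANNGAA on the reverse strand.
Mmp13: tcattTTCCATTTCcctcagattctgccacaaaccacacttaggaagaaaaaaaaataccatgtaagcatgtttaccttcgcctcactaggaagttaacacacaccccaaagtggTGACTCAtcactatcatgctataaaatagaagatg
Mmp12: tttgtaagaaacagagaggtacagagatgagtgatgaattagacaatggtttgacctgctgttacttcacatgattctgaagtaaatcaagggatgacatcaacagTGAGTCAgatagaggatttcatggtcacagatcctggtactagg
Over windows from 250 bases before to 50 after the start, TGANTCA stood on either strand in 10.3% of 369 promoters of genes called higher, 8.91% of 202 promoters of genes called lower, 5.24% of 13140 promoters of genes tested and 7.81% of all 32851 promoters in the table. The share is over promoters, and a gene can have several. The same search found no match in the windows of Hmga2, Areg or Inhba. It found a match in 1 of 6 promoters of the 12 largest rises and 2 of 7 of the 12 largest falls. Within 150 bases before the start, the falls Irgm1, Xaf1 and Cxcl10 also held TGANTCA. The rises Mmp11, Timp2, Dusp5, Epha2 and Ier3 did not. A match describes letters only.

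Ligands among the named rises included Wnt7b, Inhba and Jag1. Wnt7b, a Wnt ligand, was at 1.9 to 5.6 CPM in FL-HER2 (median 3.19) and 8.43 to 16.6 CPM in p95HER2 (median 13.1), without overlap (1.91 ± 0.20, adjusted p = 5.31e-06). Inhba, the activin A subunit, was at 4.73 to 16.5 CPM (median 7.1) and 15.9 to 29.8 CPM (median 23.8; 1.56 ± 0.18, adjusted p = 2.09e-05). Chil1, a chitinase-like protein of inflamed tissue, was at 7.6 to 16.5 CPM (median 11.4) and 20.8 to 46.6 CPM (median 33.8; 1.54 ± 0.19, adjusted p = 5.1e-05). Only Inhba of these overlapped, in the lowest p95HER2 library. The TGF-beta and activin list had 4 higher calls of 15 (median 0.13), among them Inhba, Tgfb1 (0.28 ± 0.06) and the receptor Acvr1 (0.29 ± 0.07). Fstl3, a secreted antagonist of activin that is outside the list and named because of its values, was at 0.658 to 3.31 CPM and 3.5 to 4.73 CPM (0.82 ± 0.21, adjusted p = 0.0317). The Notch ligands Jag1 (0.76 ± 0.13, adjusted p = 0.00183) and Dll4 (0.48 ± 0.13, adjusted p = 0.0432) were 2 higher calls of 13 Notch genes (median 0.10). Insulin-like growth factor genes had 3 of 11 (median 0.25), Igf2bp2, Igfbp3 (0.55 ± 0.12) and Igfbp4 (0.32 ± 0.09).

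Csf3, Cxcl1 and Il1a were low in both groups and rose in p95HER2. FL-HER2 libraries alone would not have carried any of them through the filter on low values, and their p-values carry that limit. Csf3, the granulocyte growth factor, was at 0.302 to 1.33 CPM in FL-HER2 (median 0.486) and 1.04 to 3.75 CPM in p95HER2 (median 1.61), and rose by 1.72 ± 0.27 (adjusted p = 0.000849). The neutrophil chemokine Cxcl1 (0.23 to 1.7 CPM against 0.66 to 5.67 CPM) rose by 1.32 ± 0.33 (adjusted p = 0.0317), and Il1a (0.248 to 1.46 CPM against 0.764 to 3.02 CPM) to a ratio of mean CPM of 2.45 (adjusted p = 0.0312). In Csf3 8, in Cxcl1 7 and in Il1a 5 of 10 p95HER2 libraries were above the highest FL-HER2 library. Csf3 was called with each library left out, and Cxcl1 and Il1a each lost their call in 7 of 19 such fits. Cxcl5, a chemokine of the same receptor left out by the filter, was at 0 to 0.643 CPM and 0.704 to 3.06 CPM, without overlap and without a test. Neutrophil markers gave no call in limma among 4 tested members (median -0.10; 1 at an unadjusted p under 0.05, and 1 called by voom), and their receptor Cxcr2 did not pass 0.251 CPM in any library. The myeloid chemokine and growth factor list as a whole had 2 higher calls of 12 and a median of -0.32.

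Among the remaining largest rises, Prkg2, a cGMP-dependent kinase, was at 0.756 to 1.84 CPM in FL-HER2 and 3.49 to 7.53 CPM in p95HER2 (2.20 ± 0.19, adjusted p = 2.26e-07). Gprc5a, a retinoic acid-induced receptor, was at 0.559 to 2.94 CPM and 3.24 to 7.82 CPM (1.93 ± 0.25, adjusted p = 0.000111). Acsbg1, an acyl-CoA synthetase, was at 0.745 to 2.68 CPM and 3.53 to 7.87 CPM (1.92 ± 0.20, adjusted p = 3.79e-06). None of these 3 genes overlapped between the groups. Nrp2, a receptor for semaphorins and VEGF-C, had the smallest adjusted p among changes below 1 on the log2 scale that are named here (15.6 to 24.1 CPM against 27.3 to 37.2 CPM, 0.81 ± 0.07, adjusted p = 2.26e-07) and is named because of its values.

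Endothelial genes leaned upward by a small amount. Emcn (endomucin, of veins and capillaries) was at 5.41 to 12.4 CPM in FL-HER2 (median 6.99) and 7.69 to 15.3 CPM in p95HER2 (median 12.6), and rose by 0.63 ± 0.16 (adjusted p = 0.03). The angiopoietin receptor Tie1 rose by 0.41 ± 0.11 (adjusted p = 0.0395) and the adhesion molecule Icam2 by 0.44 ± 0.12 (adjusted p = 0.0359). These were 3 of 24 tested endothelial genes, none was lower, and all 24 changes were positive with a median of 0.27. The defining markers Pecam1 (0.31 ± 0.12, adjusted p = 0.154), Cdh5 (0.35 ± 0.13, adjusted p = 0.134) and Kdr (0.27 ± 0.12, adjusted p = 0.201) did not pass. In the hypoxia list all 15 changes were positive (median 0.30), with 2 calls, Car9 (0.47 ± 0.10, adjusted p = 0.0137), a carbonic anhydrase, and the collagen hydroxylase P4ha1 (0.39 ± 0.10, adjusted p = 0.03). In bulk tumor RNA, a change in the number of cells of a type and a change in RNA per cell cannot be told apart, here and in the immune results.

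Growth and housekeeping genes gave little. DNA replication genes had no call among 20 in either direction (median -0.11, 19 negative) and mitosis genes none among 20 (median -0.08, 18 negative), with Mki67 at -0.12 ± 0.08 (adjusted p = 0.451). Ribosomal protein (24 tested), oxidative phosphorylation (22) and cholesterol synthesis genes (23) had no calls and medians of -0.01, -0.03 and -0.03. In limma 4 replication, 2 mitosis, 1 ribosomal, 3 oxidative phosphorylation and 0 cholesterol genes had an unadjusted p under 0.05, and voom called none of these lists' genes. Over all 13120 genes tested, 2594 had an unadjusted p under 0.05 in limma. Glycolysis genes had 1 higher call of 12, Pgam1 (0.16 ± 0.04, adjusted p = 0.0386). Among p53 targets only Trp53inp1 was called, lower, of 20 tested (-0.31 ± 0.08, adjusted p = 0.0375). That share of 5% is close to the 4.49% called over all genes tested.

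Of the 226 lower calls 45 were among the 220 tested members of the immune lists, which held 6 higher calls. Over all genes tested 1.72% were called lower and 2.77% higher. T cell genes were the list with the most lower calls, 12 of 20 tested and none higher, with a median of -1.40 and 19 of 20 changes negative. Cd4, the helper T cell coreceptor, was at 2.57 to 5.5 CPM in FL-HER2 (median 3.94) and 0.802 to 3.97 CPM in p95HER2 (median 1.67), and fell by 1.23 ± 0.26 on the log2 scale (adjusted p = 0.0129). Cd8a, the cytotoxic T cell coreceptor, was at 3.66 to 26.2 CPM (median 13.3) and 0.51 to 13.6 CPM (median 3.63), with a change of -1.80 ± 0.51 (adjusted p = 0.0463). The receptor chain Cd3g was at 2.48 to 13.6 CPM (median 6.61) and 0.197 to 5.94 CPM (median 1.53), with a change of -1.77 ± 0.46 (adjusted p = 0.0346). The groups overlapped for all 3 genes, and 9 or 10 of the 10 p95HER2 libraries lay below the FL-HER2 median. The costimulatory receptor Icos changed by -2.07 ± 0.43 (1.12 to 5.07 CPM against 0.0845 to 2.03 CPM, adjusted p = 0.0129). The transcription factor Bcl11b (-1.33 ± 0.28), Cd5 (-1.49 ± 0.32), Cd2 (-1.82 ± 0.43) and Cd28 (-1.37 ± 0.33) fell likewise. Cd3e, a defining marker, did not pass (-1.59 ± 0.46, adjusted p = 0.0537).

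Of 5 tested regulatory T cell genes 3 were called lower, and all 5 changes were negative. Foxp3, the defining factor of these cells, was at 0.997 to 3.75 CPM in FL-HER2 (median 2.11) and 0.283 to 1.23 CPM in p95HER2 (median 0.628), with 8 of 10 p95HER2 libraries below the lowest FL-HER2 library. It changed by -1.68 ± 0.30 (adjusted p = 0.00336). Il2ra, the high-affinity interleukin 2 receptor chain (-1.29 ± 0.32, adjusted p = 0.03), and Tnfrsf4, the OX40 receptor (-1.01 ± 0.29, adjusted p = 0.0493), were the other calls. Foxp3 was called with each library left out, while Il2ra lost its call in 8 and Tnfrsf4 in 14 of the 19 fits. Irf4, a factor of activated T cells and plasma cells, was at 0.972 to 2.05 CPM (median 1.44) and 0.218 to 1.05 CPM (median 0.441), with 9 of 10 p95HER2 libraries below the FL-HER2 range (-1.50 ± 0.27, adjusted p = 0.00399). The plasma cell list that holds Irf4 otherwise had 2 higher calls, Sdc1 (0.48 ± 0.07) and Xbp1 (0.32 ± 0.08), both also expressed in epithelium, and its own marker Jchain was not called (0.34 ± 0.91, adjusted p = 0.876). The inhibitory receptors Pdcd1 (PD-1, -1.54 ± 0.38, adjusted p = 0.0287) and Tigit (-1.83 ± 0.48, adjusted p = 0.0354) were called lower. They were 2 of 12 tested checkpoint and costimulatory genes, with 10 changes negative. Cd274, which encodes PD-L1, was at 8.79 to 23.6 CPM (median 15.7) and 4.84 to 21.5 CPM (median 9.47) and did not pass (-0.73 ± 0.24, adjusted p = 0.0802).

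Cytotoxic and NK cell genes had the lowest median of the immune lists and few calls. Their median was -1.45 over 9 tested members, and 1 was called, Ccl5, a chemokine of activated T cells and NK cells (4.81 to 26.5 CPM against 1.78 to 21.1 CPM, -1.50 ± 0.39, adjusted p = 0.0357). Granzyme B (Gzmb, -1.52 ± 0.46, adjusted p = 0.0574) and perforin (Prf1, -1.81 ± 0.57, adjusted p = 0.0675) of this list, given because of their values, did not pass. The NK cell marker Ncr1 was at most 0.724 CPM in any library and was not tested. Among the 12 largest falls in genes of at least 5 CPM were the interleukin 2 receptor chain Il2rb (-1.51 ± 0.42), Ms4a4b (-1.46 ± 0.37) and lymphotoxin beta (Ltb, -1.45 ± 0.36), all lymphocyte genes.

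**Figure D3:**
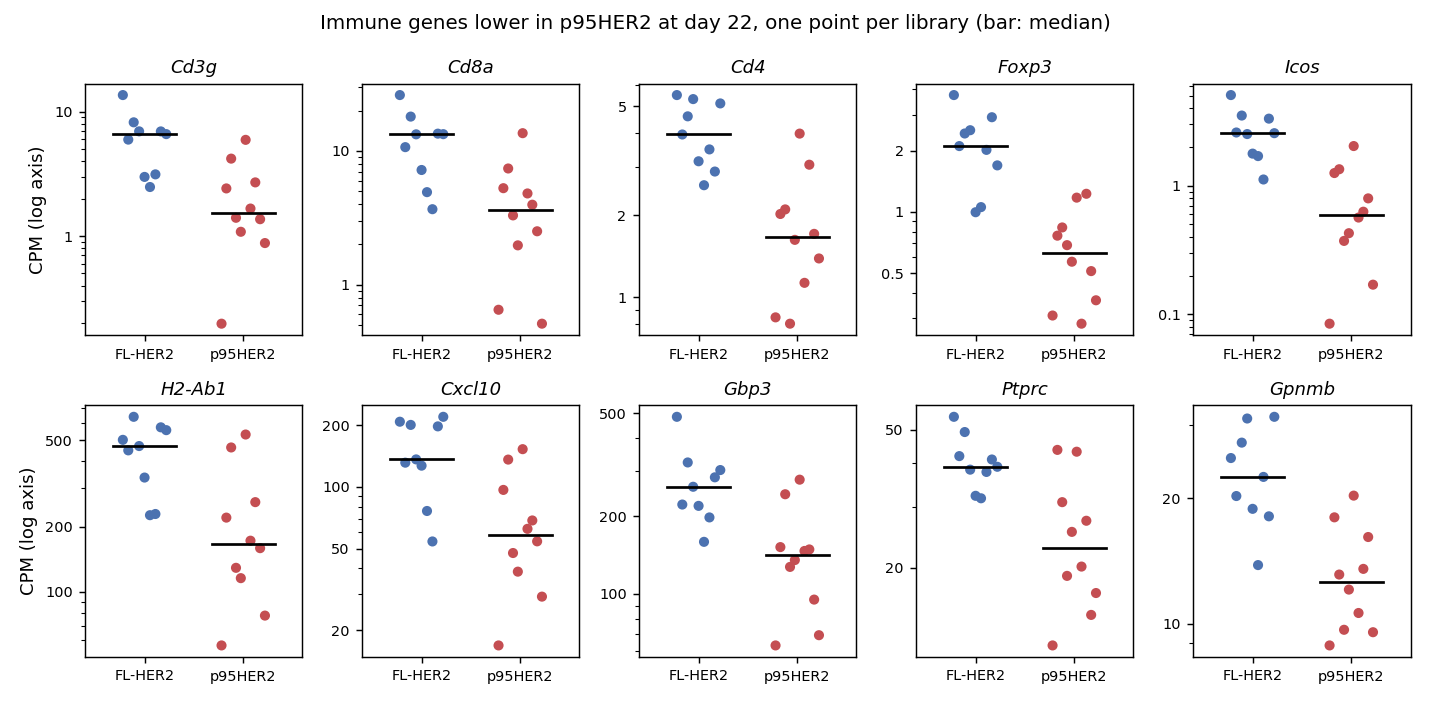
CPM on log axes for T cell, antigen presentation, interferon and myeloid genes, 1 point for each of 9 FL-HER2 (blue) and 10 p95HER2 (red) libraries with the median as a bar. In each panel 8 to 10 of the p95HER2 libraries lie below the FL-HER2 median, and the groups overlap in every panel.

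Of 11 dendritic cell genes 3 were called lower (median -0.71), the cDC1 integrin Itgae (-1.44 ± 0.33, adjusted p = 0.0194), also on resident T cells, the factor Irf8 (-0.81 ± 0.20, adjusted p = 0.0316) and the receptor Flt3 (-0.97 ± 0.27, adjusted p = 0.0471). Of 21 macrophage genes 2 were called lower (median -0.19), Gpnmb (13.8 to 31.3 CPM against 8.88 to 20.3 CPM, -0.82 ± 0.17, adjusted p = 0.0129), a glycoprotein of lysosome-rich macrophages, and the engulfment receptor Mertk (-0.44 ± 0.12, adjusted p = 0.0397). The macrophage markers Adgre1 (-0.17 ± 0.18, adjusted p = 0.637), Csf1r (-0.39 ± 0.13, adjusted p = 0.084) and C1qa (-0.47 ± 0.16, adjusted p = 0.0979) did not pass. Dnase1l3 (-2.12 ± 0.56, adjusted p = 0.0366), a secreted DNase of dendritic cells and macrophages, and Slamf8 (-1.90 ± 0.46, adjusted p = 0.0276), a receptor of activated myeloid cells, were among the 12 largest falls. Il12b, the p40 chain of interleukin 12, changed by -1.51 ± 0.38 (adjusted p = 0.0317). Of 16 general leukocyte genes 2 were called lower, Cd37 and Ptprc (CD45), the latter at 31.7 to 54.5 CPM (median 39.1) and 11.9 to 43.7 CPM (median 22.7; -0.79 ± 0.20, adjusted p = 0.0343), and all 16 changes were negative (median -0.45).

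The class II chain H2-Ab1 was at 226 to 640 CPM in FL-HER2 (median 469) and 56.8 to 530 CPM in p95HER2 (median 166), and changed by -1.26 ± 0.35 (adjusted p = 0.0434). With H2-Aa (-1.21 ± 0.35), H2-DMb2 (-0.96 ± 0.26) and the class II transactivator Ciita (-1.09 ± 0.30), 4 of 11 class II genes were called lower, and all 11 changes were negative (median -0.96). Class I genes had 2 lower calls of 17, the immunoproteasome subunit Psmb10 and the proteasome activator subunit Psme2, with all 17 negative and a median of -0.34. The class I-like gene H2-M2 had the largest fall of the named genes (0.807 to 10.1 CPM against 0 to 4 CPM, -3.10 ± 0.81, adjusted p = 0.0349).

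The interferon-gamma list had 8 lower calls of 21, none higher, all 21 changes negative and a median of -0.99. Gbp3, a guanylate-binding GTPase, was at 159 to 485 CPM in FL-HER2 (median 260) and 63 to 277 CPM in p95HER2 (median 141), and changed by -0.98 ± 0.25 (adjusted p = 0.0314). Cxcl10, a chemokine that draws T cells, was at 54.2 to 220 CPM (median 136) and 16.9 to 153 CPM (median 58.3), and changed by -1.25 ± 0.36 (adjusted p = 0.0489). For Gbp3 8 and for Cxcl10 4 of 10 p95HER2 libraries were below the lowest FL-HER2 library. Gbp7, Gbp5, Irgm1 (-0.83 ± 0.22), Cxcl11 (-1.51 ± 0.40), Irf8 and Serpina3g (-1.56 ± 0.41) were the other calls. The type I interferon list had 5 lower calls of 26, Xaf1, Oasl2, Ifih1, Ifit2 and Cmpk2 (-0.36 to -0.82), and 1 higher, the exonuclease Isg20 (0.35 ± 0.09), with a median of -0.50. Many of its members also respond to interferon gamma.

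The interferon-stimulated response element has the letters GAAANNGAA. Upstream bases of 3 falls are shown because these letters lie close to their starts: Gbp3 at chr3:142559894-142560043 (plus strand, the upstream one of 2 RefSeq starts), Irgm1 at chr11:48871421-48871570 (minus strand) and Slamf8 at chr1:172590569-172590718 (minus strand), all GRCm38.p6 and read in the direction of the gene. Capitals mark GAAANNGAA on either strand and, in Irgm1, TGANTCA at -115. In Gbp3 (first bases at -44 and -38) and in Irgm1 (-30 and -24) a pair of matches overlap, so 1 run of capitals holds both, and in Slamf8 the match is at -14.
Gbp3: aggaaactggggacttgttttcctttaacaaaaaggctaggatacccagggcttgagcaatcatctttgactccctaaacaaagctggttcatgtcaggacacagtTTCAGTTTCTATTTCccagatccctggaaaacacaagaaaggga
Irgm1: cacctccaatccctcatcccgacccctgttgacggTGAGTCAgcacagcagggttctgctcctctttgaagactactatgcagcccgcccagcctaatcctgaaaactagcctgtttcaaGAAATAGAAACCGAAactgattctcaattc
Slamf8: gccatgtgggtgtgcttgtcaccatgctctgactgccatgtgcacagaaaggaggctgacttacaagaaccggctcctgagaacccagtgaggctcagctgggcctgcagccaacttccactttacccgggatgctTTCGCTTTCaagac
Slamf8 is not among the calls of the interferon lists, and the 150 bases before the downstream start of Gbp3 held no GAAANNGAA. Of the interferon-list falls looked up besides Gbp3 and Irgm1, Gbp7 and Ifih1 held GAAANNGAA within 150 bases before the start. Irf8, Cxcl10, Serpina3g, Xaf1, Oasl2, Ifit2 and Cmpk2 did not. In windows from 250 bases before to 50 after the start, GAAANNGAA stood in 37 of 202 promoters of genes called lower (18.3%), 21 of 369 of genes called higher (5.69%), 946 of 13140 of genes tested (7.20%) and 8.56% of all promoters in the table. For the STAT letters TTCNNNGAA these shares were 10.4%, 7.05%, 6.83% and 8.30%. Among the 12 largest rises GAAANNGAA stood in 2 of 6 promoters, and among the 12 largest falls in 1 of 7. These shares are a description, with no test. Promoters of related genes can share sequence, and a match is not a bound site.

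The same libraries stood at the ends of several immune lists. The mean log2 value of the tested T cell genes was 5.80 to 7.62 in FL-HER2, with replicates 5, 6 and 7 lowest, and 4.13 to 6.99 in p95HER2, with replicates 1 and 10 lowest and replicates 3 and 6 highest. All 10 p95HER2 libraries lay below the FL-HER2 median of 7.04, and 6 lay below the lowest FL-HER2 library. For the interferon-gamma list the ranges were 10.4 to 12 and 8.66 to 11.4, with 5 p95HER2 libraries below the FL-HER2 range, and for class II genes 10.1 to 11.4 and 8.63 to 11.1, with 6 below. p95HER2 replicate 1, the lowest library on these 3 lists, was also the lowest of the 19 in muscle reads (0.00169%), and p95HER2 replicates 3, 4 and 5 were below the lowest FL-HER2 library in muscle reads too. The part of muscle RNA in the immune results was not tested beyond the fits given next. Muscle genes themselves had no call in limma or voom among 20, and 0 at an unadjusted p under 0.05 (median -1.73, and 0.07 over libraries with 0.1% to 1.3% muscle reads). Over those libraries the T cell median was -1.39 with 5 lower calls, and the interferon-gamma median -0.98 with 4. With the muscle score as a covariate, the T cell list kept a median of -1.09 with 4 lower calls, and the interferon-gamma list -0.78 with none. Without the 4 skin-marked libraries the T cell median was -1.50 with 6 lower calls and the interferon-gamma median -1.10 with 4. Class II genes had no call in these fits, with medians of -0.87, -0.80 and -1.06.

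With the mean log2 value of the general leukocyte genes of each library as a covariate, an alternative chosen after seeing the data, 61 genes were called higher and 4 lower. None of the 52 named falls was then called, against 26 of 68 named rises, and the medians were -0.58 for T cells, -0.31 for interferon gamma and -0.30 for class II. The laminin-332 list kept 2 calls and the MAPK list 1. Leukocyte genes are part of the difference between the groups, so this fit removes some of it by its construction.

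**Figure D4:**
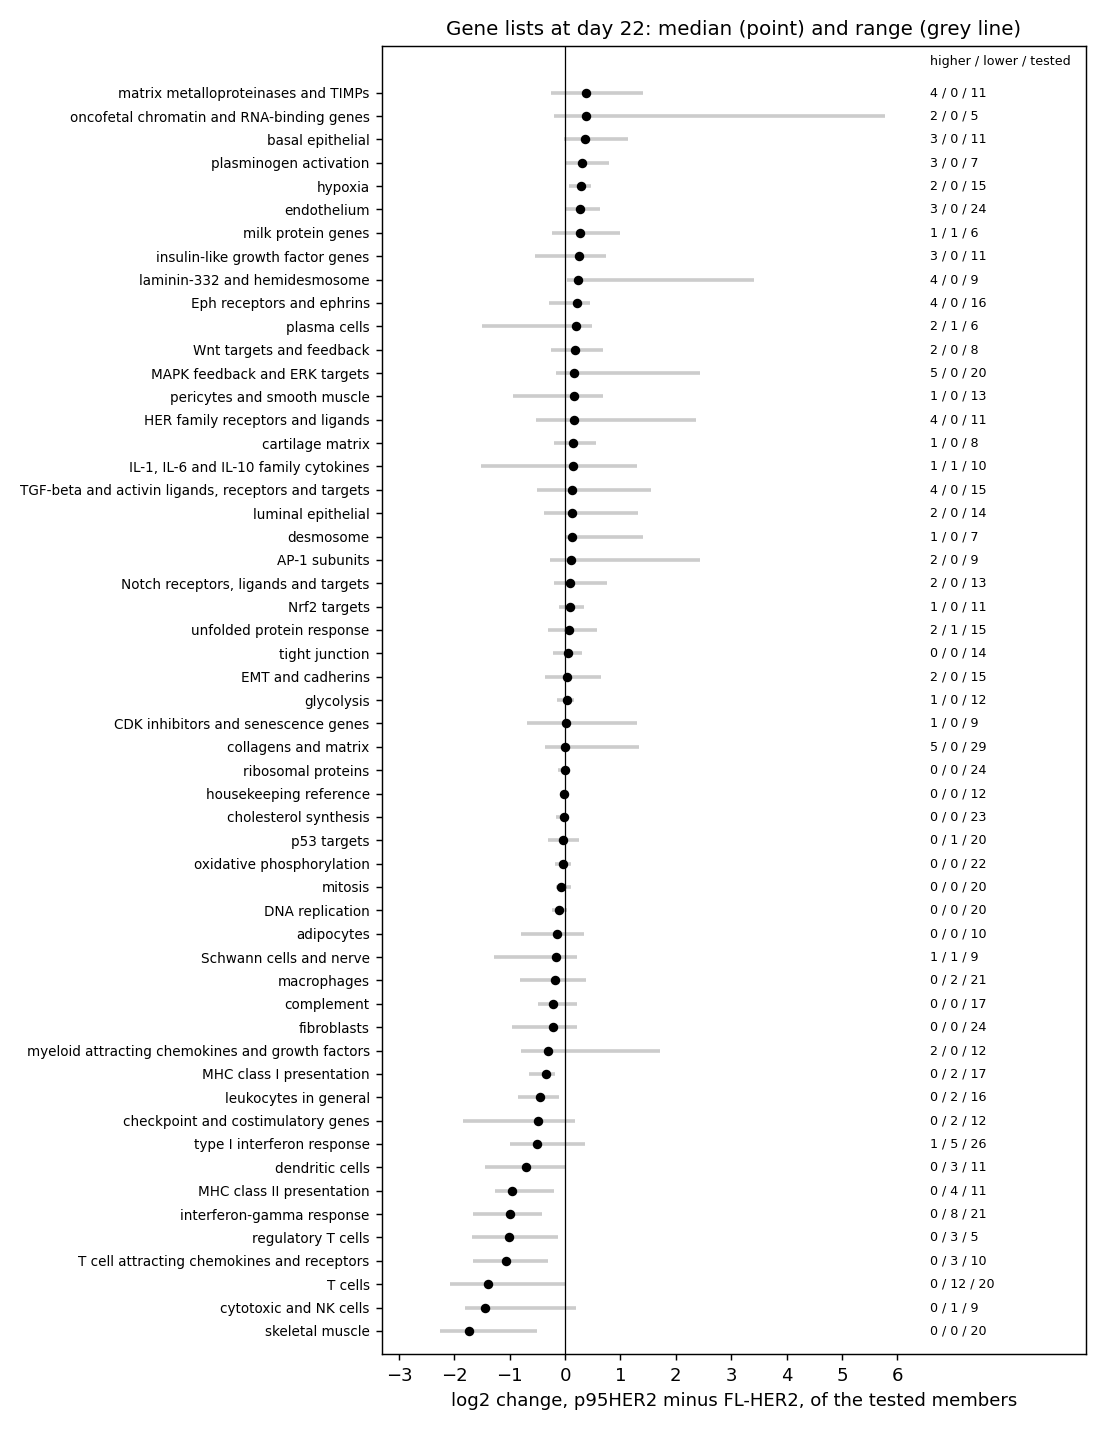
Each row is a gene list with at least 5 tested members, its median log2 change (black point) and the range of its members (grey line), with the numbers called higher, called lower and tested at the right. T cell, cytotoxic, interferon and class II lists lie to the left with lower calls, and the skeletal muscle list lies farthest left without any call.

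Other called genes included Gjc3, a connexin of myelinating glia, which fell (4.96 to 13.1 CPM against 2.17 to 6.42 CPM, -1.05 ± 0.24, adjusted p = 0.0203) while the Schwann cell list had 1 other call of 9, Erbb3, and Sox10 did not pass (-1.29 ± 0.56, adjusted p = 0.201). Lcn2, an iron-binding secreted protein of stressed epithelium, rose by 0.41 ± 0.09 (adjusted p = 0.0192). The stress factor Ddit3 rose by 0.59 ± 0.14 (adjusted p = 0.0237) and the chaperone cofactor Sdf2l1 fell by 0.30 ± 0.09 on the log2 scale (adjusted p = 0.0456), so the unfolded protein list had 2 higher calls, 1 lower call and a median of 0.08. The 2 genes in which all p95HER2 libraries lay below all FL-HER2 libraries were Zfp287, a zinc finger gene (2.64 to 4.67 CPM against 1.56 to 2.54 CPM, -0.59 ± 0.13, adjusted p = 0.0186), and Gm32856, a long noncoding RNA (5.35 to 8.42 CPM against 3.55 to 5.02 CPM, -0.56 ± 0.10, adjusted p = 0.00224). Both are named because of their values.

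The number of calls moved with single libraries. Leaving out each library in turn gave 204 to 948 calls, 162 to 557 higher and 42 to 506 lower. All 589 genes kept their direction each time, which says little because they were called on these same libraries. The count fell by more than 1.5 times without FL-HER2 replicate 1 (224), 3 (207), 4 (266), 8 (299) or 9 (275), or without p95HER2 replicate 1 (329), 4 (228), 7 (285), 9 (228) or 10 (204). It rose by more than 1.5 times without FL-HER2 replicate 6 (948) and p95HER2 replicate 6 (947). The lower calls alone were 391 without p95HER2 replicate 3 and 125 without p95HER2 replicate 5. Of the 68 named rises 39 were called in every one of these fits, among them Erbb2, Lama3, Areg, Hbegf, Fosl1, Mmp13, Krt7, Wnt7b and Inhba. The counts of rises include Dynap and Hmga2, which passed the filter only through p95HER2 libraries and are given with no test. Of the 52 named falls 9 were called in every fit, namely Cd4, Bcl11b, Icos, Cd5, Foxp3, Irf4, Itgae, Gpnmb and Gjc3. The calls of Cd8a, Gbp10, Ly6i, Tnfrsf4, Flt3, Cxcl10, H2-Aa, Sdf2l1, Cmpk2, Ier3, Plat and Efna5 were lost in 14 or 15 of the 19 fits.

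**Figure D5:**
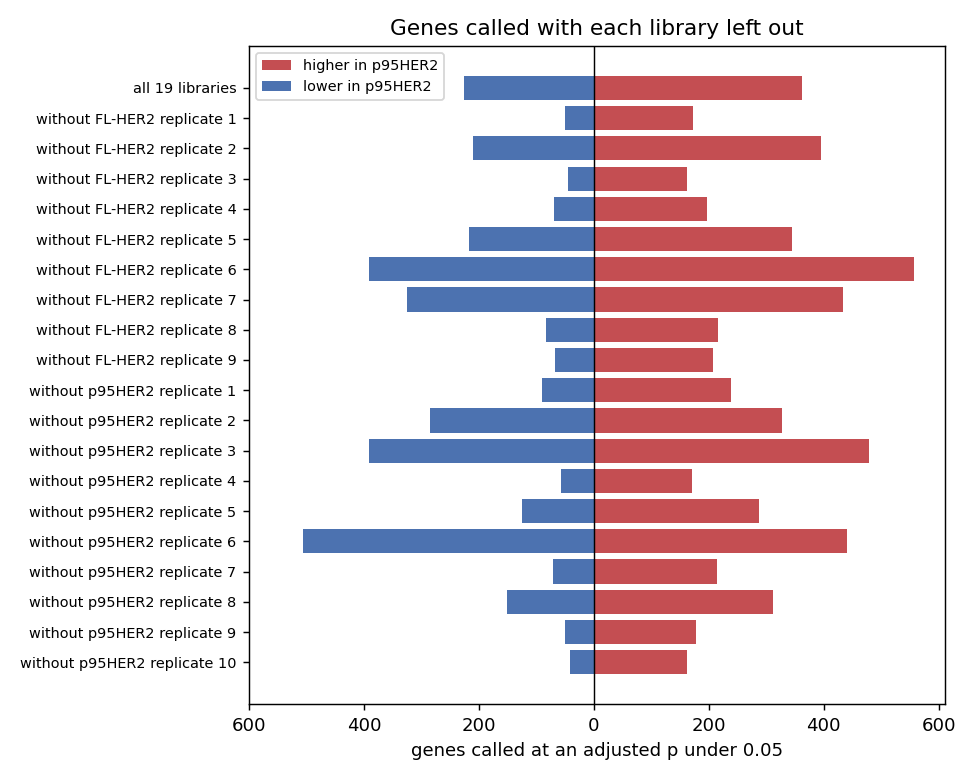
Genes called higher (red, to the right) and lower (blue, to the left) with all 19 libraries and with each library left out in turn. Lower calls range from 42 without p95HER2 replicate 10 to 506 without p95HER2 replicate 6, and higher calls from 162 to 557.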

How the data were processed

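Tumor RNA was purified with RNeasy columns and made into directional poly(A) libraries, per the labels' protocols. STAR 2.4.2a, mm10 and DESeq2 are named in the submitters' processing notes; which counter, annotation and strand setting were used is not stated. The deposited file names its values CPM, but the authors' deposited values are log2(read count divided by a size factor, + 1): whole reads were recovered for 100% of values within 0.001 reads. CPM values here were computed from those reads. Genes that reached 1 CPM in 9 or more of the 19 libraries were kept (13120 of 20520), and the deposited log2 values were compared with limma 3.58.1 in R 4.3.3 (moderated test with a mean-variance trend, Benjamini-Hochberg adjustment over all tested genes, two-sided), with group as the only term. Tables used Python 3.11.15, pandas 2.3.3 and numpy 2.4.6. Gene positions are from GENCODE M21 (GRCm38), matched for 13007 tested genes (99.1%). Promoters and the 150 bases upstream are from RefSeq on GRCm38.p6; 34 of 50 genes looked up had one. No 2 libraries held identical reads.

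Named were Erbb2 and Cd274; the 12 largest rises and falls among called genes with at least 5 CPM in the higher group, leaving out predicted genes and antigen receptor segments; up to 6 called members of each gene list with at least 2 calls, by adjusted p; up to 2 of other lists; and defining cell markers. Genes named because of their values fall outside this rule. The comparison and the 60 gene lists were chosen with earlier results of these data known. Alternatives were other filters, pseudocounts, scalings, all 39 libraries in the model, voom, library weights, tissue covariates and subsets, and each library left out. Day 10 libraries were otherwise left out. A planned subset by skin score left 0 libraries and could not be run; after the data were seen it was replaced by leaving out libraries with at least 50 CPM in the skin list. Some members of the lists are counted with their list and are not reported here by name. Intervals and floors cover counting error only.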

Additional observations from a re-analysis of the deposited data

Results flagged for a closer look

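Of 328 groups of values checked, 23 had 1 library far from the rest of its group. Chance flags about 1 in 20 groups. Named genes were refitted without each library in turn, and the calls kept are given in the report. Whether these libraries account for a result was not tested.

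In FL-HER2, replicate 7 stood apart by its summed level of the epidermis and hair list (60.3 CPM, others 19.6 to 31.6), by a low level of the fast muscle myosin Myh4 (25.1 CPM, others 222 to 1425), and by high Jup, or plakoglobin (655 CPM, others 472 to 576), and the ribosomal gene Rplp0 (2576 CPM, others 1823 to 2110). Replicate 8 had the highest share of muscle list reads (0.943%, others 0.0252% to 0.476%). Replicate 4 was low in the collagens Col1a1 (531 CPM, others 1031 to 1700) and Col3a1 (331 CPM, others 634 to 1089) and in Tgfb1 (43.5 CPM, others 56.5 to 71.1). Replicate 6 was high in Pkp1 (13.3 CPM, others 3.96 to 6.69) and Dusp5 (5.92 CPM, others 2.92 to 3.99), both of which rose in p95HER2. Replicate 1 was high in Ifih1 (146 CPM, others 98.1 to 107) and Mertk (8.16 CPM, others 4.95 to 6.26), both of which fell.

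In p95HER2, replicate 3, one of the skin-marked libraries, was low in Cd151 (123 CPM, others 138 to 149), F11r (211 CPM, others 226 to 266), Efna5 (68.1 CPM, others 79.3 to 93.1) and Spp1 (811 CPM, others 1346 to 2312), and high in the sterol enzyme Cyp51 (364 CPM, others 178 to 246). Replicate 5 was low in Tgfb1 (62.1 CPM, others 70.7 to 81.8) and Igf2bp2 (6.89 CPM, others 8.93 to 11.9). Replicate 1 was low in Ly6i (0.0282 CPM, others 0.453 to 5.04), replicate 2 in Cdkn1a (231 CPM, others 282 to 331) and replicate 8 in Plat (10.8 CPM, others 14.4 to 17.9). Replicate 9 was high in Junb (188 CPM, others 117 to 141).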

How the results depend on the processing

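All 589 called genes that were tested under an alternative kept their direction in it, and no named gene reversed. This says little, because the genes were called on the same libraries. The 13120 tested genes gave 589 calls, 363 higher and 226 lower. The count moved by more than 1.5 times for at least one direction in these fits. A log2 change of at least 1 left 100 calls (42 higher, 58 lower). The leukocyte score as a covariate left 65 (61, 4), the skin score 196 (155, 41) and the muscle score 322 (241, 81). The libraries with 0.1% to 1.3% muscle reads gave 322 (219, 103), and the set without skin-marked libraries, chosen after seeing the data, 231 (162, 69). Library weights gave 1301 (664, 637). Leaving out 1 library gave 204 to 948 calls, 162 to 557 higher and 42 to 506 lower. A filter at 5 CPM (453), no filter (502), all 39 libraries in the model (584), voom on the recovered reads (674), other pseudocounts (583 and 595), log2(CPM + 1) (556), median-of-ratios scaling (610) and quantile normalization (579, of which 66.8% were higher against 61.6%) stayed within 1.5 times. The causes were not tested. Of 68 named rises 24 were called under every alternative, and of 52 named falls 0 were. With voom and with library weights all 68 and all 52 were called. The 68 rises include Dynap and Hmga2, which are given with no test. No paired analysis was possible because each tumor has its own number in the labels, replicate numbers here are only names, and nothing ties a p95HER2 tumor to an FL-HER2 tumor. At this depth a gene with 0 reads in all FL-HER2 libraries has a floor of 0.0105 CPM over the group.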

Other observations

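Several gene groups outside the main account moved by small amounts. Ephrins and their receptors, which signal between touching cells, had 4 higher calls of 16 and none lower (median 0.21): Epha2, Epha1, Efna1 and Efna5. The secreted Wnt inhibitors Wif1 (0.44) and Sfrp1 (0.35) were 2 higher calls among 8 Wnt target and feedback genes (median 0.18), beside the rise of the ligand Wnt7b. Among 6 tested milk protein genes Lcn2 rose and Xdh, the xanthine oxidase of milk fat globules, fell (-0.24). The tight junction list (14 tested) and the complement list (17 tested) had no calls in limma or voom, with medians of 0.05 and -0.21. At an unadjusted p under 0.05 in limma were 1 and 3 of their members, against 2594 of all 13120 genes tested.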
